A study of Mus musculus with 24 samples.

Results

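The 78 genes described here are protein-coding mRNAs of NIH3T3 cells that were recovered strongly with a microRNA-29b mimic although the authors' deposited table marks no predicted site in them. The table does not describe its site column, which was taken from the header alone to mark predicted miR-29 target sites. A gene was taken when its site column was false and when, in each of the 4 whole-cell replicates, its CPM (reads of the gene scaled to 1e6 counts of the table's column) reached at least 20 in the miR-29b pulldown and at least 8 times the value of the same-numbered scrambled pulldown. The rule left out 29 symbol prefixes, among them those of collagens, lysyl oxidases, Krüppel-like factors, cyclins, cyclin-dependent kinases and tropomyosins. The rule took 78 of 13534 genes in the table, which is 0.701% of the 11133 protein-coding genes that have no marked site and a symbol it kept. Among the 469 such genes with a marked site, the same rule took 72, or 15.4%. The number depends on the scaling: with the authors' library totals in place of the column sums, a setting added after seeing the data, it was 146, and 76 of the 78 were among them. The listed counts made up 82.6% to 87.3% of those totals in the miR-29b pulldowns and 48.9% to 72.2% in the scrambled ones. The members were chosen by these pulldown CPM values and their ratio, so the pulldown contrast is a description here and carries no test.

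NIH3T3 is an immortalised mouse embryonic fibroblast line. The study transfected these cells with a miRNA mimic that carries the photocrosslinking base 3-cyanovinylcarbazole, either with the miR-29b sequence or with a scrambled one, at 10 nM. Medium was added 24 h after transfection and cells were harvested 8 h later. RNA recovered with the mimic (pulldown) and RNA before recovery (input) were sequenced for each mimic in 4 whole-cell replicates, which gives 16 libraries, and once each in nuclear and cytoplasmic fractions, which gives 8. All groups therefore carry a transfected mimic, and no untransfected cells are part of the comparison. The file headers call replicates 1 to 3 lysed and replicate 4 intact, and nothing in the labels says whether the replicates were separate cultures.

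A microRNA guides an Argonaute protein to mRNAs that pair with its seed, the bases near its 5′ end, and pairing usually lowers the stability or translation of the mRNA. Predictions of targets look mainly for such seed matches in 3′ untranslated regions, so pairing within coding sequence, in other transcript ends or without a full seed match escapes them. The miR-29 family is expressed in fibroblasts and is known for repressing extracellular matrix genes.

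The mature sequences of the family are shown because the site column was read as predictions for this seed. They come from RefSeq on GRCm38.p6, and bases 2 to 8, the seed, are in capitals. The sequence of the mimic strand itself was not used here.
mmu-miR-29b-3p: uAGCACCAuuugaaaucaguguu
mmu-miR-29a-3p: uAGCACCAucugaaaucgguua
mmu-miR-29c-3p: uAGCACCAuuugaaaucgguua
The 3 family members share the seed AGCACCA and differ only after it. miR-29b-3p is encoded at chr1:195037091-195037113 on the plus strand and at chr6:31063025-31063047 on the minus strand.

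The first 50 transcribed bases were the only transcript sequence searched, on the transcribed strand, and were held for 62 of the 78 members. The DNA form of an 8-base match, TGGTGCTA, was present in 0 of the 62, against 0.0646% of 9285 protein-coding genes. The 7-base match TGGTGCT, which is contained in the 8-base form, was present in 1 member, Hba-a1, against 0.582% of the protein-coding genes. The 6-base match GGTGCT, contained in both longer forms, was present in 2 members, or 3.23%, against 2.64%. The Hba-a1 window is printed with the 7-base match in capitals and runs over the start codon, on the plus strand at chr11:32283700-32283721 of GRCm38.p6.
Hba-a1: agaaaccaTGGTGCTctctggg
These shares describe the transcript start only. Coding sequences and 3′ untranslated regions of the members were not searched here.

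Depth differed between libraries. The 16 whole-cell libraries held 7409157 to 55153996 listed counts, with the lowest in scrambled pulldown replicate 1 and the highest in miR-29b input replicate 4, and the 8 fraction libraries held 5320421 to 20142591. Of 9 fibroblast markers, 8 were listed and 6 averaged at least 10 CPM over the 8 inputs, with a summed level of 3945 to 4695 CPM. Endothelial markers were not among the listed genes, and epithelial, leukocyte and muscle markers summed to at most 8.87 CPM in any input. Of 5 neural markers only Stmn2 was listed, at 12.1 to 18.0 CPM. The 5 adipocyte markers summed to 427 to 447 CPM in replicates 1 to 3 of the miR-29b input and to 114 CPM in replicate 4, and to 452 to 479 and 171 CPM in the scrambled inputs; their part in the input results was not tested. Among the pulldowns, miR-29b replicate 3 lay between replicates 1 and 2 in 77 of 78 members, in 71 of the 72 recovered genes with a site, and in 72.3% of the other protein-coding genes without a site. Whether this replicate is a library independent of the others is not settled by the labels, and with it left out the rule took 88 genes. Replicate 4 of the miR-29b input stood apart, as its values below show, so each input result is given with and without it.

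By the rule every member reached 8-fold in every replicate. The median ratio of miR-29b to scrambled pulldown over the 78 genes was 12.6, 14.8, 11.8 and 16.1 in replicates 1 to 4, and 21.5, 18.1, 14.8 and 19.9 with the authors' library totals. The largest was 37.2, 41.1, 37.9 and 80.6. The smallest of a member's 4 ratios ranged from 8.05 to 27.3 with a median of 10.2. In the miR-29b pulldowns, replicate 1 was the lowest of the 4 libraries for 72 members, and replicate 4 was the highest for 36. The smallest count behind any member was 463 reads in a miR-29b pulldown and 10 reads in a scrambled pulldown.

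**Figure D1:**
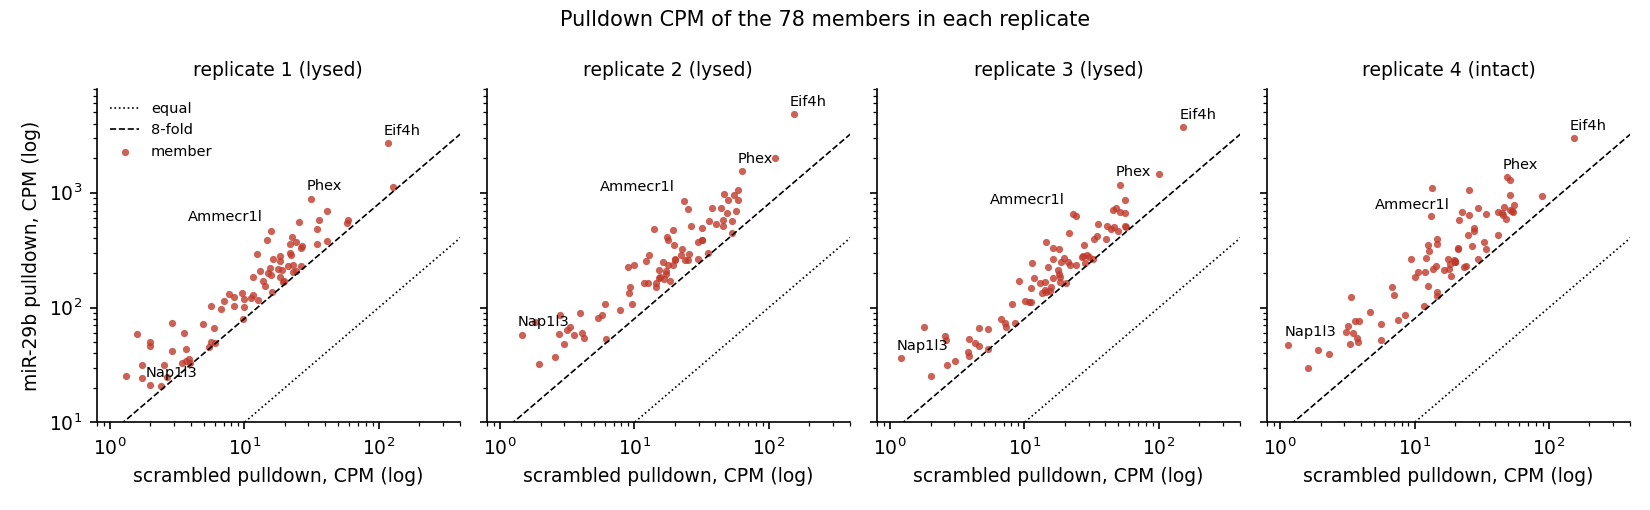
CPM of the 78 members in the scrambled pulldown (x axis, log) and the miR-29b pulldown (y axis, log), with a panel for each replicate and a point for each gene. The dashed line marks the 8-fold ratio of the rule and the dotted line equal values, so every point lies on or above the dashed line, with median ratios of 12.6, 14.8, 11.8 and 16.1.

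The member recovered with the highest smallest ratio was Ammecr1l, a paralogue of the gene AMMECR1, deleted in a contiguous gene syndrome. Its CPM was 463, 842, 647 and 582 in the 4 miR-29b pulldowns and 15.9, 23.2, 23.1 and 21.3 in the scrambled ones, and its ratios ran from 27.3 to 36.3. Zfp322a, a zinc finger transcription factor, had 293, 485, 371 and 624 CPM against 12.4, 13.96, 14.6 and 13.3 CPM. For Ammecr1l and Zfp322a the pulldown groups did not overlap. The rule itself compares only same-numbered libraries and does not require this. Phex, a membrane endopeptidase homologue whose loss causes X-linked hypophosphataemia, had 888, 1543, 1179 and 1364 CPM against 31.1, 63.2, 51.5 and 48.99 CPM. Blcap, a small membrane protein whose mRNA is edited from A to I, had 559, 715, 629 and 642 CPM against 25.4, 25.04, 24.3 and 25.5 CPM. Its values varied least between the miR-29b libraries among these genes with the highest ratios, whereas Efna2 ranged widely in its ratio.

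Efna2, an ephrin ligand of Eph receptor kinases, had 59.03, 86.3, 67.1 and 39.6 CPM against 1.59, 2.799, 1.77 and 2.296 CPM, with ratios from 17.3 to 37.9. Its high ratio rested on scrambled values of a few CPM, unlike that of Eif4h. Eif4h, which stimulates the helicase eIF4A during translation initiation, took more pulldown reads than any other member, with 2698, 4808, 3741 and 2993 CPM against 117, 154, 152 and 154 CPM. The remaining genes with the highest smallest ratios were Abhd13, a hydrolase of the alpha/beta fold (19.5), Srd5a1, a steroid 5-alpha-reductase (18.5), and Cmpk1, the pyrimidine nucleoside monophosphate kinase (15.3). They also included Appbp2, a substrate receptor of a cullin ubiquitin ligase (15.1), Dusp22, a dual-specificity phosphatase (14.9), and Spast, a microtubule-severing ATPase (14.3), where each number in these sentences is the smallest of the 4 ratios.

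Several members with many pulldown reads had smaller ratios. H3f3a, a gene of the replacement histone H3.3, had 1121, 2011, 1465 and 928 CPM against 129, 112, 101 and 88.5 CPM. C1qtnf6, a secreted protein with a collagen-like and a C1q domain, had 546, 967, 742 and 689 CPM against 58.5, 46.5, 47.6 and 53.2 CPM. Zfp280b, a zinc finger gene, had 414, 960.4, 676 and 1283 CPM against 22.8, 54.96, 51.2 and 51.7 CPM. Counts of H3f3a and of Hba-a1, an alpha-globin gene, are uncertain because near-identical copies can share their reads. CPM is not divided by transcript length, so it compares libraries for a gene and not genes with each other.

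The members spread over many functions, counted here with lists made from symbols and starts of symbols. Such lists are incomplete and can take in a gene by its name alone. Some members with a listed function lie outside them, such as Ifngr2, a receptor chain, and Appbp2, a receptor of a ubiquitin ligase. The counts are those of the lists, not of all genes with the function. The list of transcription factors and chromatin genes held 11 members of its 731 genes that could have been members (1.505%), where the members make up 0.701% of all such genes. The sizes given for the lists below count such genes too. Of these 11, 7 carry a zinc finger name: Zfp322a, Zfp280b, Zfp770, Zfp46, Zfp354a, Zfp568 and Znf512b. The others were Med8, a Mediator subunit (13.3 to 17.7-fold over the 4 replicates), Taf5, a subunit of the general factor TFIID (8.82 to 22.4-fold), Foxn2, a forkhead factor (9.76 to 16.95-fold), and Hdac2, a histone deacetylase (8.19 to 9.61-fold). How many of the 731 genes carry a zinc finger name was not counted. No test of these shares was run, because the members were chosen with results known.

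Protein turnover and signalling were represented by smaller numbers. The ubiquitin and proteolysis list held 5 of 394 genes, namely Ubac1, Rnft1, Fbxw7, Klhl42 and Psma5. Fbxw7, the substrate receptor of a ubiquitin ligase that targets Myc and cyclin E, had 117, 257, 183 and 206 CPM against 12.6, 12.2, 11.8 and 11.9 CPM. The list of kinases, phosphatases and small G proteins held 6 of 492, namely Dusp22, Rassf5, Prkx, Stk4, Ptp4a1 and Rap2a, of which Stk4 is the Hippo pathway kinase MST1 (10.2 to 17.2-fold). Outside these lists, Smad7, the inhibitory Smad of TGF-beta signalling, had 96.99, 135, 114 and 265 CPM against 6.75, 9.18, 10.04 and 9.47 CPM. Rnd3, an atypical small GTP-binding protein, had 207, 498, 354 and 1054 CPM against 13.1, 31.8, 27.9 and 25.6 CPM. In Smad7, Rnd3 and Hba-a1 the highest miR-29b pulldown was replicate 4, and Hba-a1 had 235, 235, 243 and 1092 CPM. These 3 were named after their values were seen.

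Transporters and channels held 4 of 320 genes: Slc25a51, the mitochondrial NAD carrier, Slc37a3, Slc35a1, the CMP-sialic acid transporter of the Golgi, and Slc36a4. Vesicle and membrane traffic held 3 of 319, namely Ap1g1, the gamma subunit of the clathrin adaptor AP-1, Arl5b and Stx11. Mitochondria and metabolism held 2 of 546, namely Cox11, which assembles cytochrome c oxidase, and Prdx3, the mitochondrial peroxiredoxin, with 9.26 to 12.3-fold recovery. RNA processing and translation held 2 of 492, Eif4h and, through a shared name prefix only, Dusp22. The list of cell surface genes held 1 of 222, Efna2, and did not hold Ifngr2. Of the 160 listed secreted and matrix genes 1 was a member, C1qtnf6. Of 25 genes on a list of reported miR-29 targets 2 were, C1qtnf6 and Ptp4a1. The lists of the cytoskeleton, of cell cycle and DNA repair and of interferon-stimulated genes held 0 members of 287, 277 and 39 genes.

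The rule's threshold fell within a continuous range of ratios. Just inside it lay Znf512b with a smallest ratio of 8.05, Zfp568 with 8.06 and Mb21d2 with 8.11. Just outside it lay Pigc, an enzyme of GPI anchor synthesis, with 7.97, Zfp41 with 7.94 and Elmod2 with 7.91.

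The fraction libraries were not used by the rule and give the same contrast for separated cytoplasm and nucleus. Each fraction and mimic has 1 library, so no test was made, and intervals cover counting error only. Ratios were scaled by TMM (trimmed mean of M-values) factors over the 11568 genes of the fraction table. In the cytoplasm all 78 members had a log2 ratio above 0, as did 51.2% of all genes, but with column sums in place of TMM the number was 77, without C1qtnf6. With TMM 72 of 78 (92.3%) were at least 2-fold higher, against 20.3% of all genes. Their median log2 ratio was 2.20, or 4.598-fold, against 0.033 for all genes. At least 8-fold recovery was seen for 12 members, against 0.562% of all genes. In the nucleus 11 of 78 (14.1%) were at least 2-fold higher, against 1.26% of all genes, with a median log2 ratio of 0.46. With the authors' library totals the nuclear number was 18, against 1.69% of all genes. The cytoplasmic log2 ratio exceeded the nuclear one in 77 of 78 members, the exception being Rassf5, in 66 of the 72 recovered genes with a site (91.7%) and in 51% of all genes. None was at least 2-fold lower in either fraction, where 16.9% of all genes in the cytoplasm and 1.96% in the nucleus were.

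**Figure D2:**
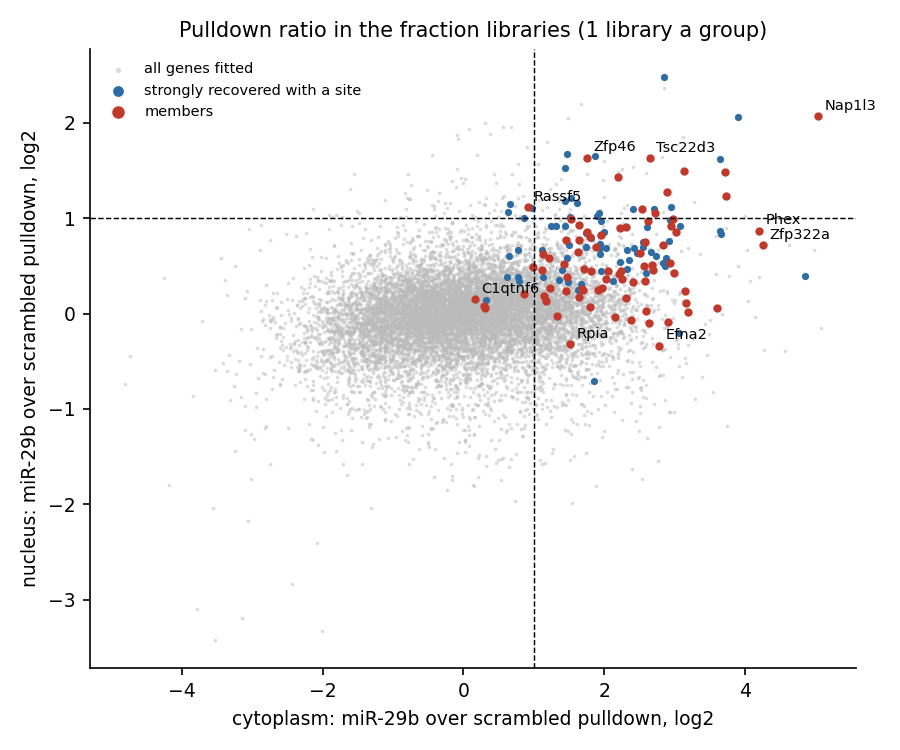
Log2 ratio of miR-29b to scrambled pulldown in the cytoplasm (x axis) and the nucleus (y axis), from 1 library a group, for all fitted genes (grey), strongly recovered genes with a marked site (blue) and the 78 members (red). Dashed lines mark 2-fold. The members lie to the right, with 72 of 78 beyond 2-fold in the cytoplasm and 11 in the nucleus.

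Nap1l3, a nucleosome assembly protein-like gene of the X chromosome, had the highest log2 ratio in both fractions, at 5.05 in the cytoplasm and 2.07 in the nucleus. Its cytoplasmic value was 19.9 CPM against 0.376 CPM, a ratio of 60.5-fold (95% interval 16.6 to 502) that rests on very few scrambled reads. Zfp322a followed in the cytoplasm with 191 CPM against 11.1 CPM, or 19.6-fold (95% interval 15.1 to 25.8). Phex had 533 CPM against 32.7 CPM, or 18.6-fold (95% interval 15.995 to 21.7). These intervals lie above 8-fold, as they do for Cmpk1 with 13.4-fold (95% interval 11.8 to 15.3) and Rnd3 with 13.4-fold (95% interval 10.8 to 16.9). Over the 78 members, the counting interval of the cytoplasmic ratio lay wholly above 1 for 75, against 35.7% of all genes, and that of the nuclear ratio for 51, against 17.3%. Of the 72 recovered genes with a site, 71 and 68 did so. The cytoplasmic interval lay wholly below 1 for 0 members, against 32.4% of all genes.

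The nuclear recovery was led by genes with different cytoplasmic values. After Nap1l3 the highest nuclear ratios were those of Zfp46, with 3.24-fold (95% interval 2.38 to 4.48), and of Tsc22d3, which encodes the glucocorticoid-induced leucine zipper protein GILZ, with 3.13-fold (95% interval 2.703 to 3.63). Their cytoplasmic ratios were 3.51-fold (95% interval 2.42 to 5.24) and 6.304-fold (95% interval 5.51 to 7.25). The intervals of the fractions overlapped for Zfp46, while that of Tsc22d3 lay higher in the cytoplasm. Ammecr1l was recovered 8.98-fold (95% interval 7.25 to 11.2) in the cytoplasm and 2.84-fold (95% interval 2.49 to 3.24) in the nucleus.

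Of the 78 members, 6 did not reach 2-fold in the cytoplasm. C1qtnf6 had 65.8 CPM with miR-29b and 67.04 CPM with the scrambled mimic, a scaled ratio of 1.12-fold (95% interval 0.988 to 1.27), and 1.11-fold (95% interval 0.948 to 1.301) in the nucleus. Arv1, a sterol-homeostasis protein of the endoplasmic reticulum, had a cytoplasmic ratio of 1.24-fold (95% interval 0.762 to 2.07). Frrs1, a membrane ferric reductase, had 1.24-fold (95% interval 0.999 to 1.54). For these 3 genes the interval included 1, and even its upper bound lay far below the 8-fold that every whole-cell replicate reached. The rule required that 8-fold on column-sum CPM, whereas the fraction ratios were scaled by TMM with intervals of counting error only. The other 3, Cd300lb, Rassf5 and Slc25a51, had log2 ratios of 0.86, 0.92 and 0.99, with Slc25a51 at the border of 2-fold. C1qtnf6 was also lower in the miR-29b input of both fractions, as given below.

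In the nucleus 71 members had a log2 ratio above 0, against 49.9% of all genes, and 7 had one below 0, the lowest being Efna2 at -0.34, Rpia, the ribose-5-phosphate isomerase, at -0.32, and H3f3a at -0.097. Rpia had 42.4 CPM against 51.7 CPM, a ratio of 0.8-fold (95% interval 0.68 to 0.941). It was the only member whose nuclear interval lay wholly below 1, as did 17.1% of all genes, while its cytoplasmic ratio was 2.89-fold (95% interval 2.38 to 3.52). The nuclear values of Efna2 were 2.45 and 3.16 CPM, and their interval of 0.37 to 1.54 included 1.

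Across the 78 members, the median whole-cell ratio and the cytoplasmic ratio, both on the log2 scale, had Pearson's r of 0.36 and Spearman's rank correlation of 0.24. This is a correlation across genes, which are not independent replicates, between whole-cell and cytoplasmic libraries. The rule used the whole-cell ratios and admits none under 8-fold, which narrows their range, so these values are a description. Blcap, among the highest by whole-cell ratio, had 3.32-fold (95% interval 2.79 to 3.96) in the cytoplasm, and Srd5a1 had 2.395-fold (95% interval 1.28 to 4.88).

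Recovered genes with a marked site were set beside the members for the same measures. Of these 72 genes, 62 (86.1%) were at least 2-fold higher in the cytoplasmic miR-29b pulldown and 18 (25%) in the nuclear one, with median log2 ratios of 1.94 and 0.70. The members' counts were 72 of 78 and 11 of 78, with medians of 2.20 and 0.46. With the authors' library totals the cytoplasmic counts were 75 of 78 members and 71 of 72 genes with a site, against 32.7% of all genes. The order of the cytoplasmic shares thus depends on the scaling. The difference between the sets was not tested.

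The distribution of the members between nucleus and cytoplasm in the input RNA was close to that of other genes. Relative to the median of all genes, the members' median nuclear over cytoplasmic log2 ratio was -0.15 with the scrambled mimic and -0.086 with miR-29b, against 0.27 and 0.34 for recovered genes with a site. Znf512b, Zfp568 and Apaf1, the scaffold of the apoptosome, had the highest ratios in the scrambled input, at 2.401, 2.16 and 1.72. H3f3a, Eif4h and Efna2 had the lowest, at -2.47, -1.84 and -1.78. The sign of the unadjusted median depends on the scaling between fractions: with the scrambled mimic it was -0.14 with TMM and 0.42 with column sums, where the median of all genes moved from 0.0092 to 0.56.

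The members were also set against their own input. With the miR-29b mimic, the median log2 ratio of pulldown to input CPM, with 0.5 CPM added to each, was 3.49, 4.19 and 3.88 in replicates 1 to 3 and 2.48 in replicate 4. All 78 members lay above 0 in every replicate. Of the 11212 other protein-coding genes without a site, 5080, 5726, 5477 and 7152 did so in replicates 1 to 4. With the scrambled mimic the members' medians were -0.25, 0.21, 0.14 and 0.24, and 29, 46, 44 and 49 members lay above 0. Of the 11212 other genes, 5419, 6514, 6534 and 7869 did so with that mimic. The recovered genes with a site had medians of 3.60, 4.56, 4.21 and 2.55 with miR-29b. These ratios share the pulldown libraries with the rule and are a description.

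The inputs ask whether the level of the members' mRNA changed in cells that received miR-29b instead of the scrambled mimic; in bulk RNA, fewer cells with an mRNA and less of it per cell cannot be told apart. The fit over all 16 libraries with edgeR's quasi-likelihood test called 0 members higher and 0 lower at an adjusted p of 0.05, against 0.0542% of 12915 genes higher and 0% lower. At an unadjusted p under 0.05 there were 33 members, or 42.3%, against 4.68% of all genes. DESeq2 called 3 members higher and 0 lower, against 0.282% and 0.123% of the genes it gave an adjusted p. With the replicate number as a block edgeR called 1 member higher and 0 lower, against 0.0774% and 0.00774% of the genes. The median log2 change of the members was 0.77, against 0.016 for all genes, and 2 members had a negative value, against 47.4% of all genes and 0 of the 72 recovered genes with a site. These values rested on 1 library, replicate 4 of the miR-29b input. Within replicates 1 to 3, the median log2 ratio of miR-29b to scrambled input over the members was -0.022, -0.014 and -0.053, and within replicate 4 it was 1.76. With that library left out the fitted median was -0.056, with 16 members at an unadjusted p under 0.05 against 8.24% of all genes, and with replicates 1 to 3 of every group it was -0.060.

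**Figure D3:**
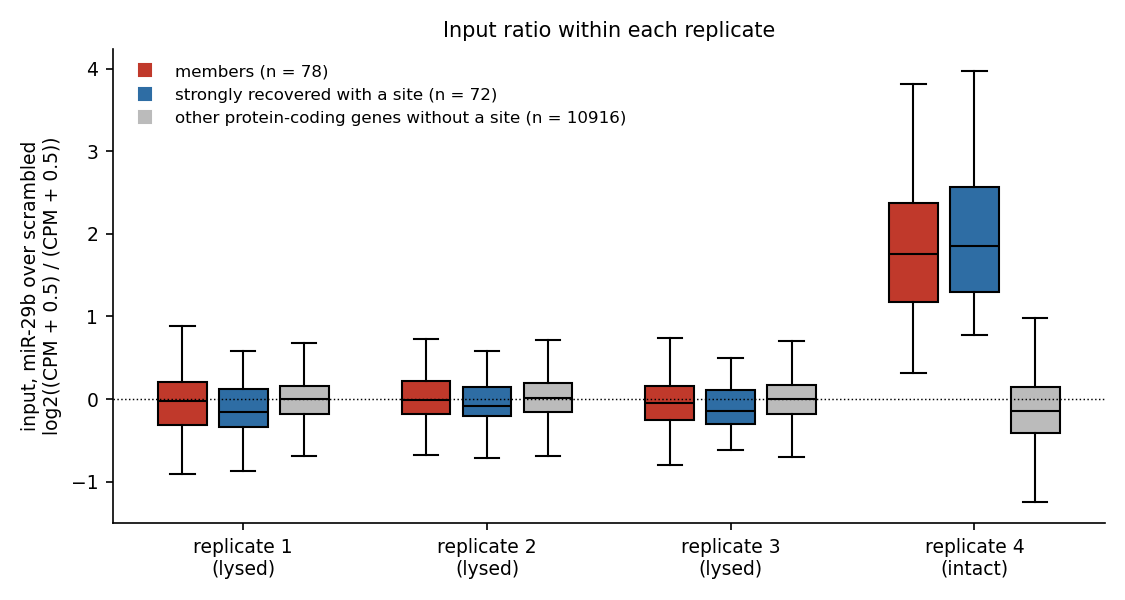
Log2 ratio of miR-29b to scrambled input, with 0.5 CPM added to each, within each replicate for the members (red), the strongly recovered genes with a marked site (blue) and other tested protein-coding genes without a site (grey). Boxes give quartiles and medians, whiskers reach 1.5 interquartile ranges, and farther genes are not drawn. The members' median is near 0 in replicates 1 to 3 and 1.76 in replicate 4.

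In replicate 4 of the miR-29b input, 76 of 78 members had their highest value among the 8 inputs, as did 70 of 72 recovered genes with a site and 15.8% of the other protein-coding genes without a site. The members summed to 2112, 2232 and 2141 CPM in replicates 1 to 3 of the miR-29b input and to 5694 CPM in replicate 4, against 1766 to 2186 CPM in the scrambled inputs. The difference between the inputs of replicate 4 followed the pulldown of that replicate. As a percentage of the miR-29b pulldown CPM of replicate 4, it had a median of 12.9% over the members, with quartiles of 11.6% and 13.7% and a range of 4.94% to 16.6%. The recovered genes with a site had a median of 12.7%. In replicates 1 to 3 the same percentage had a median of -0.13%, -0.067% and -0.12% over the members. Per the labels this library was made from 6 ng of RNA and the other whole-cell libraries from 5 ng. The cause of its values was not tested.

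**Figure D4:**
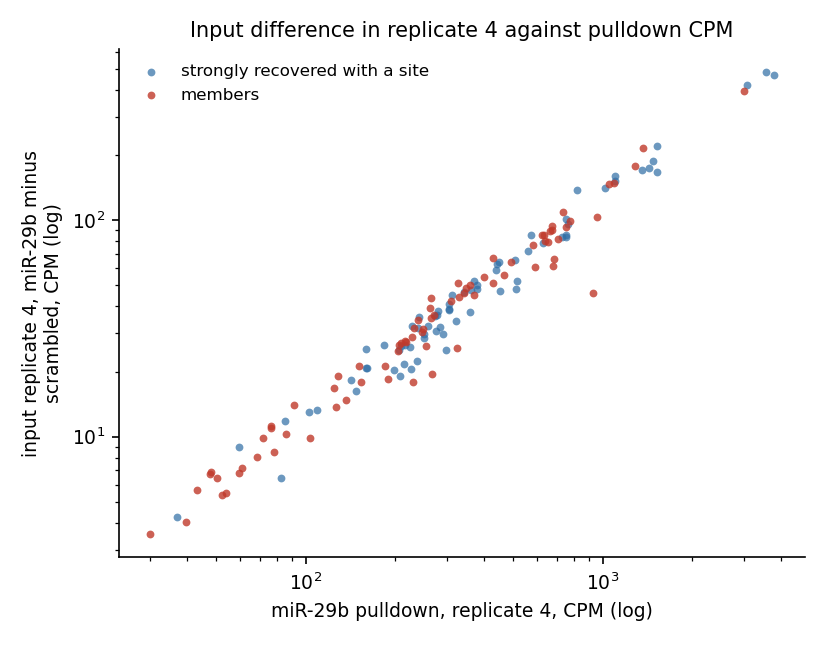
Difference in CPM between the miR-29b and scrambled inputs of replicate 4 (y axis, log) against CPM in the miR-29b pulldown of replicate 4 (x axis, log), with a point for each member (red) and each strongly recovered gene with a marked site (blue). The points follow a common line, with a median difference of 12.9% of the pulldown value for the members and 12.7% for the genes with a site.

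With replicates 1 to 3 of every group, 2 members were higher in the miR-29b input and 0 lower by edgeR's quasi-likelihood test at an adjusted p of 0.05, against 0.639% and 0.74% of 12834 genes. Of the 78 members, 44 had a negative log2 change, or 56.4%, against 53% of all genes. The members' quartiles were -0.33 and 0.14, and their median of -0.060 compares with -0.019 for all genes and -0.16 for the recovered genes with a site. The members' median thus lay close to that of all genes, with single genes on either side. When the replicate number was added as a block to replicates 1 to 3, a setting chosen after seeing the data, 4 members were higher and 2 lower, against 1.01% and 1.62% of all genes. The input genes that follow were named after their values were seen.

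Prkx, a cAMP-dependent kinase related to protein kinase A, was higher with miR-29b. Its input CPM was 33.1, 39.6 and 38.8 in replicates 1 to 3 with miR-29b and 17.7, 21.5 and 19.8 with the scrambled mimic, and 70.6 against 19.2 in replicate 4. The groups did not overlap. The log2 change was 0.89 ± 0.19 (SE) with replicates 1 to 3 (edgeR adjusted p = 0.043). With all 16 libraries it was 1.28 (edgeR adjusted p = 0.2), and with all libraries and the replicate block 1.204 (edgeR adjusted p = 0.041). Gcnt4, a glycosyltransferase that branches O-glycans, had 7.03, 7.37 and 6.73 CPM against 3.19, 4.45 and 3.84 CPM in replicates 1 to 3 and 17.6 against 3.63 CPM in replicate 4. Its log2 change was 0.85 ± 0.15 with replicates 1 to 3 (edgeR adjusted p = 0.021), and 1.45 with all libraries (edgeR adjusted p = 0.26). The calls of both genes depend on the setting. With only the 8 input libraries the edgeR adjusted p was 0.63 for Prkx and 0.71 for Gcnt4. With replicates 1 and 2 neither passed, at log2 changes of 0.88 and 0.91. DESeq2 over all libraries gave adjusted p of 0.0073 and 0.025.

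Ptp4a1, the phosphatase PRL-1, and Ifngr2, the beta chain of the interferon gamma receptor, passed the threshold only with replicates 1 to 3 and the block, or for Ptp4a1 also with DESeq2 over all libraries. Ptp4a1 had 35.04, 31.8 and 35.8 CPM against 19.9, 19.1 and 19.7 CPM in replicates 1 to 3, and 85.8 against 19.2 CPM in replicate 4. Its log2 change was 0.78 (edgeR adjusted p = 0.089 without the block and 0.045 with it). Ifngr2 had 82.03, 84.8 and 81.4 CPM against 56.3, 60.2 and 59.5 CPM, a log2 change of 0.47 (edgeR adjusted p = 0.099 and 0.044). For these genes too the 3 libraries of each group did not overlap, which holds for 21 members in the upward direction, against 19.1% of all genes tested.

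Phex had 73.7, 82.8 and 78.4 CPM against 50.4, 53.9 and 53.9 CPM in replicates 1 to 3 and 248 against 32.04 CPM in replicate 4. Its log2 change of 0.54 with replicates 1 to 3 did not pass the threshold (edgeR adjusted p = 0.22, and 0.063 with the block).

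In the other direction, C1qtnf6 had 80.6, 72.8 and 77.7 CPM with miR-29b against 122, 117 and 115 CPM with the scrambled mimic in replicates 1 to 3, groups that did not overlap. Its log2 change was -0.64 ± 0.19 and did not pass the threshold (edgeR adjusted p = 0.11). In replicate 4 its values were 127 and 60.9 CPM, in the opposite order. Tsc22d3 had 25.9, 25.9 and 27.1 CPM against 35.3, 37.4 and 36.3 CPM, a log2 change of -0.49 that did not pass either (edgeR adjusted p = 0.083). Efna2 and Ctdspl2, a phosphatase of the CTD-like small family, passed only with replicates 1 to 3 and the block, with log2 changes of -0.52 (edgeR adjusted p = 0.036) and -0.69 (edgeR adjusted p = 0.046). Groups that did not overlap in the downward direction were found for 21 members, against 19.6% of all genes tested.

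The fraction inputs are separate libraries of the same contrast, 1 a group. Phex was 204 CPM with miR-29b and 80.2 CPM with the scrambled mimic in the cytoplasm, and 115 against 45.6 CPM in the nucleus, with log2 ratios of 1.404 and 1.24. These were the highest of the 78 members in each fraction. Gcnt4 had 1.03 and 0.88, and Prkx had 0.92 and 0.64. Ptp4a1 had 1.03 and 0.29, a difference between fractions that 1 library a group cannot test. C1qtnf6 had the lowest log2 ratios of the members in both fractions, at -0.70 and -0.64, from 39.9 against 67.9 CPM in the cytoplasm. Efna2 and Ctdspl2 did not keep 1 direction, with cytoplasmic log2 ratios of 0.16 and -0.19 and nuclear ones of 0.63 and 0.46.

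Across the 78 members, the whole-cell input change with replicates 1 to 3 and the cytoplasmic input ratio had Pearson's r of 0.71 and Spearman's rank correlation of 0.63. For the nuclear input ratio they were 0.25 and 0.13. These are correlations across genes, which are not independent replicates, between libraries that share no sample. The same values are not given here for other genes, so they are not read as a trait of the members. The members' median log2 input ratio was 0.016 in the cytoplasm and 0.068 in the nucleus.

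**Figure D5:**
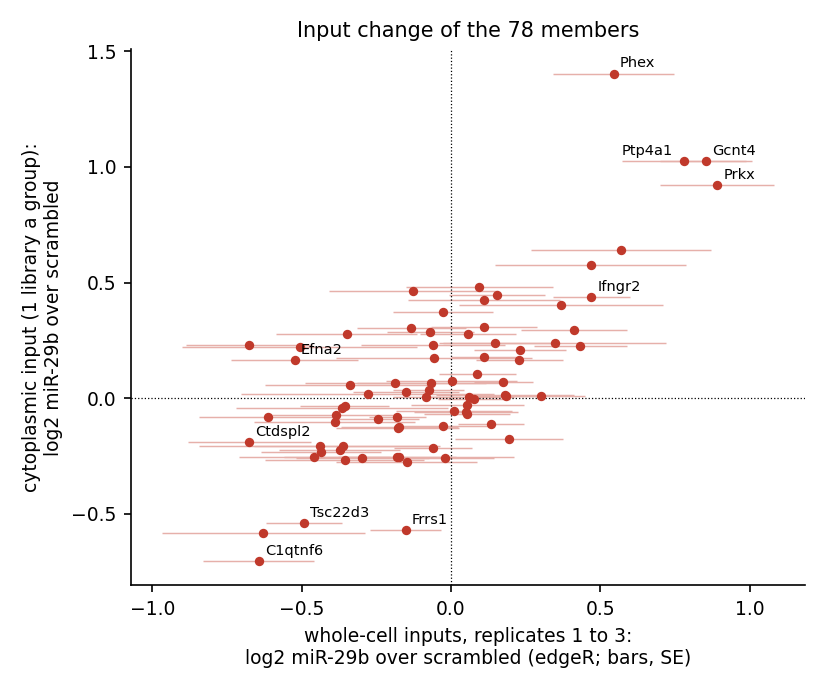
Log2 change of miR-29b over scrambled input for each of the 78 members, from replicates 1 to 3 of the whole-cell libraries (x axis, edgeR, with bars for the SE) and from the cytoplasmic libraries (y axis, 1 library a group). Phex, Gcnt4, Ptp4a1 and Prkx lie high in both, C1qtnf6 and Tsc22d3 low in both, and Pearson's r across the genes is 0.71. No value for other genes is given.

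In the genome the members lay on many chromosomes. All 78 were matched to the RefSeq gene table of GRCm38.p6, 3 of them through an older symbol, on 20 chromosomes with 5 on the X. None lay next to another strongly recovered gene among the genes of the table, where 2.18% of protein-coding genes did. Only directly adjacent genes were looked at, and some members lay near each other. For example, Ammecr1l ended at base 31784083 of chromosome 18 and Sft2d3 began at base 31909094. Their median span was 22596 bp, against 22545 bp for all protein-coding genes and 29629 bp for the recovered genes with a site. The span of 9 members overlapped another gene of the table, as did that of 19.7% of protein-coding genes. Examples were Yod1 with Pfkfb2, Cox11 with Tom1l1 and Rnft1 with Rps6kb1. None of the 9 overlapping genes had a marked site, and the highest smallest ratio among them was 1.85, for Rps6kb1. Whether counting used strand is not given in the sources used here, so reads in the shared stretches could be split between these genes. The authors' deposited table lists a human homologue for 76 of the 78, and 96.3% of protein-coding genes have one.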

How the data were processed

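The members, gene lists and tests were chosen with earlier results of these data known. The submitters' processing notes name the aligner STAR (2.3.0) and the build mm10. How reads were counted, and whether by strand, is not stated in these sources. The authors deposited whole-number counts per gene and library, and CPM values that equal the count plus 1 over a library total above the listed counts. Here CPM is the count over the column sum of 14052 lines; 518 repeated lines were then dropped. The files for the nuclear and cytoplasmic fractions hold the same bytes, so a single copy supplied the values of each.

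The input comparison used edgeR 4.0.16 under R 4.3.3 (filterByExpr, TMM, quasi-likelihood test, two-sided) in 1 model of 4 group means over the 16 whole-cell libraries, with Benjamini-Hochberg adjustment over 12915 genes and a threshold of 0.05. With no label for separate cultures, the p-values cover only spread among these libraries, possibly technical. Same-numbered inputs deviated together from their group means (r of 0.515, 0.522, 0.500 and 0.714). The best other number gave 0.367, 0.482, 0.416 and -0.43. Replicates 1 to 3 thus deviated with other numbers too, so these values cannot establish that the numbers pair the samples. The main fit left the replicate number out, and fits with it as a block are given beside it. Fraction ratios used TMM, a prior count of 5 and genes with at least 20 counts over 8 libraries, with exact binomial counting intervals at 95%. On simulated counts of the input comparison over 12812 genes, 37% of 2-fold and 88% of 4-fold changes were called. Among the unchanged genes 12 were called. The simulation took each gene's mean over all 16 libraries, pulldowns among them, and gave no library a deviating level. It therefore does not give the share of changes that would be called among the members. Named genes were the 12 highest smallest ratios, the 6 highest mean CPM, up to 6 input calls a direction, up to 3 a gene list, the 3 highest and lowest fraction values and the 3 genes on each side of the threshold; Gm and Rik symbols were counted only. Alternatives were other folds, floors, scalings, filters and tools, the replicate block and leaving out libraries.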

Additional observations from a re-analysis of the deposited data

Results flagged for a closer look

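A library far from the other 3 of its group was replicate 4 of the miR-29b input. For the members' summed CPM, the gap from it to the nearest library took 0.966 of the group's range. The same held in that group for Gcnt4 (0.940 of the range), Ptp4a1 (0.926), Ifngr2 (0.941), Phex (0.948), Ctdspl2 (0.966) and C1qtnf6 (0.857). In the scrambled input, replicate 4 lay below the others for Phex (0.840) and C1qtnf6 (0.880). Over all 78 members a library stood apart in this way for 66 in the miR-29b input and 9 in the scrambled input, in each case replicate 4. It did for 12 in the scrambled pulldown, in each case replicate 1, and for 1 in the miR-29b pulldown, replicate 4. The share over all genes was not computed, so these counts are not read as a trait of the members. Chance flags about 1 group in 20, and members share libraries.

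The median log2 ratio of miR-29b to scrambled input over the members was 1.76 in replicate 4, called intact, and below 0 in each of replicates 1 to 3, called lysed. The difference was not tested, and with 1 intact replicate procedure and library cannot be told apart. Rpia had a nuclear log2 pulldown ratio of -0.32 and a cytoplasmic one of 1.52, a difference that was not tested for lack of replicates.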

How the results depend on the processing

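Membership is a threshold count. It was 292 at 4-fold, 8 at 16-fold, 146 with the authors' library totals (added after seeing the data; 76 of the 78 shared), and 78 to 101 without each replicate. In the inputs, edgeR called 0 members in either direction with each input library left out in turn; DESeq2 called 3 higher, the replicate block 1 higher (Prkx), replicates 1 to 3 gave 2 higher, and replicates 1 to 3 with the block, added later, 4 higher and 2 lower. The block changed no other call. Replicates 1 and 2 of every group, added later, gave 0 members in either direction, as did only the 8 input libraries. The members' median input log2 change of 0.77 was -0.060 with replicates 1 to 3, -0.059 with the block added, -0.017 with replicates 1 and 2 (added later) and -0.056 to 0.97 without each input library. The reversal followed replicate 4 of the miR-29b input; the cause was not tested.

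For single genes with a reversed sign, the input log2 change of Efna2, 0.0084 with all libraries, was -0.40 to 0.19 without each input library, -0.52 with replicates 1 to 3, -0.52 with the block added, -0.58 with replicates 1 and 2 and -0.036 with the authors' totals. For Ctdspl2, 1.32 with all libraries, it was -0.78 to 1.68, -0.68, -0.69 and -0.69 under the first 4 of these settings.

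In the fractions, 12 members in the cytoplasm and 0 in the nucleus were at least 8-fold higher, against 0.562% and 0% of all genes. With the authors' totals, 18 members were at least 2-fold higher in the nucleus. In the cytoplasm 75 members and 71 of the 72 recovered genes with a site were, which reversed the order of the 2 shares. The median nuclear over cytoplasmic log2 ratio was 0.62 and 0.42 (miR-29b and scrambled input) with column sums and -0.41 and -0.42 with the authors' totals, as the median of all genes moved with the scaling. Apart from these and the input genes given above, the alternatives kept each result's direction and side of the threshold. Fraction values have 1 library a group, and genes with few scrambled reads have wide counting intervals.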
